A study of Canis lupus familiaris with 30 samples.

Results

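Cancer-associated stroma (CAS) was compared between dogs whose simple mammary carcinoma (mCA) was labelled purely tubular and dogs whose simple mCA carried another growth pattern. The 15 CAS libraries of the series, out of 30 libraries in all, were split by the subtype label alone into 8 tubular and 7 other. The split uses no expression value. All dogs were female patients of various breeds with spontaneous tumours, and the stroma had been cut by laser-capture microdissection (LCM) from formalin-fixed, paraffin-embedded tumours removed by curative surgery. The text of the study mentions no treatment before surgery. The other 15 libraries hold normal stroma of the same dogs, from regions near unaltered glands on the same slides, and are used below for side-by-side values.

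The tubular group consisted of dogs 123, 126, 127, 130, 132, 135, 136 and 137, aged 6 to 14 years at excision, and 4 of the 8 were labelled neutered. The other group was mixed. It held 3 tubulo-papillary carcinomas (dogs 121, 128 and 138), 2 cystic-papillary carcinomas (dogs 134 and 139), 1 cribriform carcinoma (dog 131) and 1 tubular-solid carcinoma (dog 109). These dogs were aged 4 to 12 years and 2 of the 7 were labelled neutered. The tubulo-papillary and tubular-solid tumours also contain tubules by name, so the contrast is one of pure against mixed or different architecture. Cases had been selected for enough tumour stroma and for areas with little or no inflammation, and each library comes from 1 dog.

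Simple carcinomas are made of a single type of tumour cell and are named after how these cells arrange themselves. Tubular tumours form gland-like tubules, papillary tumours grow as fronds on a stromal core, cystic-papillary tumours do so inside dilated spaces, cribriform tumours form sheets pierced by small openings, and solid tumours form compact nests. CAS is the connective tissue around these cells, made of fibroblasts and myofibroblasts, blood vessels, immune cells and collagen-rich matrix. It differs from resting mammary stroma in its matrix and in the signals it exchanges with the tumour cells.

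The files list genes by Ensembl dog ID and do not pair the IDs with names, and 0 IDs matched the reference table of dog genes. Known markers of fibroblasts, epithelium, vessels or immune cells could therefore not be read, the label of the tissue was not checked against them, and the lists of pathway genes drawn up for this comparison were not analysed here. Genes are given by ID. In bulk tissue of this kind, fewer cells of a type and less RNA per cell cannot be told apart.

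Tubular dogs were older on average, although the difference missed the threshold after adjustment. Age at excision was 11.6 ± 2.56 years (SD, n = 8) in the tubular group and 8.14 ± 2.79 years (SD, n = 7) in the other group. The difference of 3.48 years had p = 0.0356 in a two-sided exact permutation test over all ways to choose 8 of 15 dogs, and 0.0712 after adjustment over the 2 ages compared. The paraffin blocks had been stored for 3 to 27 months in the tubular group (median 12) and for 7 to 23 months in the other group (median 13), and this did not differ beyond the spread between dogs (same exact permutation test, p = 0.860, adjusted p = 0.860). Values with age in the fit are given with the genes.

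Total estimated counts had a median of 3034552 in tubular CAS (range 1361951 to 4039211). In other CAS the median was 3954464 (range 2933876 to 5572761). On the log2 scale tubular CAS was lower by 0.51 (two-sided exact permutation test, p = 0.0567, adjusted p = 0.170 over 3 library measures). The number of genes with at least 10 counts was 10489 ± 1261 (SD, n = 8) in tubular CAS and 11249 ± 982 (SD, n = 7) in other CAS, which did not differ beyond the spread between dogs (same exact permutation test, p = 0.216, adjusted p = 0.324). The 10 most abundant genes took 47.7 ± 11.2% of the counts (SD, n = 8) in tubular CAS and 45.9 ± 10.5% (SD, n = 7) in other CAS (same exact permutation test, p = 0.749, adjusted p = 0.749).

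In a principal component analysis (PCA) of the 15 CAS libraries, the subtypes overlapped on each of the first 3 components. PC1, PC2 and PC3 held 15.9%, 15.0% and 12.0% of the variance, on log2 CPM, the counts of a gene scaled to a common library total. Subtype accounted for 5.35% of the variance of PC1 scores, 3.07% of PC2 and 5.13% of PC3. A label unrelated to the scores would take 7.14% on average over 15 libraries. On PC1, tubular CAS scored between -33.4 and 66.7 and other CAS between -61.6 and 34.3, so that the groups overlapped over most of their range. The difference of the group means was 16.5 on PC1 (two-sided exact permutation test, p = 0.401), 12.1 on PC2 (same exact test, p = 0.629) and 14.1 on PC3 (same exact test, p = 0.501), and each had an adjusted p = 0.629 over the 3 components. The sign of a component is arbitrary.

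**Figure D1:**
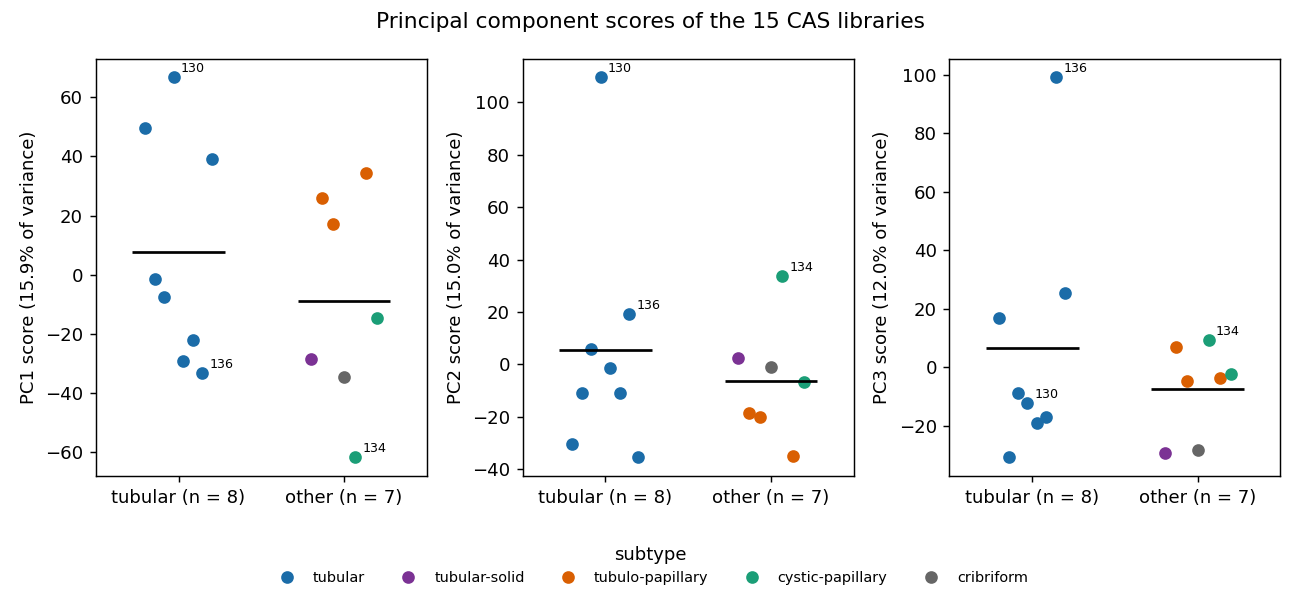
Scores of the 15 CAS libraries on the first 3 principal components of log2 CPM, with 1 point per dog coloured by subtype and a bar at the group mean. The groups overlap on every component, dog 130 stands at 109 on PC2 and dog 136 at 99.0 on PC3.

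The extremes of PC2 and PC3 were 2 tubular libraries. Dog 130 scored 109 on PC2, where the next highest tubular library scored 19.03. This library had the lowest total (1361951 counts) and the fewest genes with at least 10 counts (8621). Dog 136 scored 99.0 on PC3, where the next highest tubular library scored 25.4. Its block was the oldest (27 months), and it had the second lowest total (1848241 counts) and 8920 genes with at least 10 counts. Among the other subtypes, the cystic-papillary carcinoma of dog 134 had the lowest PC1 score, -61.6. The part of depth and of block age in these scores was not tested. The 3 tubulo-papillary carcinomas scored between 17.3 and 34.3 on PC1, and the 4 remaining tumours of the other group between -61.6 and -14.6, a split noticed after the scores were seen and not tested.

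Whole profiles were compared pair by pair. Spearman's rho of log2 CPM over the tested genes had a median of 0.801 over the 28 pairs of tubular libraries, 0.844 over the 21 pairs of other libraries and 0.825 over the 56 mixed pairs. These pairs share libraries, and rho also moves with depth, so the values are a description. Tubular libraries thus had the lower median rho among themselves than with the other subtypes. For 1 of the 8 tubular libraries, the most similar CAS library was another tubular one. For 2 of the 7 other libraries it was a tubular one. The cystic-papillary CAS of dog 139, with 4478521 counts, had the highest median rho with all other CAS libraries (0.855), and the tubular CAS of dog 130 had the lowest (0.761).

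The spread between dogs within each group was also measured. The biological coefficient of variation, the relative spread of a gene's level between dogs after counting noise is taken out, was estimated over all tested genes together in each group. It was 0.562 in tubular CAS and 0.489 in other CAS. With each dog left out in turn it was between 0.539 (without dog 130) and 0.581 in tubular CAS, and between 0.446 (without dog 134) and 0.513 in other CAS. The median SD of log2 CPM of a gene was 0.69 in tubular CAS and 0.56 in other CAS. This difference was not tested, and the tubular libraries were also the shallower ones.

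No gene passed an FDR of 0.05 between tubular and other CAS in edgeR's quasi-likelihood test. That is 0 of 11322 genes tested, 0%, and no adjusted p in edgeR was below 0.999. At an unadjusted p below 0.05 there were 218 genes higher in tubular CAS, 1.93% of those tested, and 153 genes lower, 1.35% of those tested. Together these 371 genes are 3.28% of the genes tested. Without the filter on low counts there were 1227 of 17971 genes, 6.83%, so the share lay below or above the 5% of the threshold depending on the filter. Without dog 126 there were 242 genes lower instead of 153. DESeq2, run on the same genes, called 2 at an FDR of 0.05, which is 0.0177%, and gave 469 genes with an unadjusted p below 0.05. Limma's voom with quality weights for each library called 0 genes and gave 381 with an unadjusted p below 0.05. The other group was also narrowed. Without the tubular-solid carcinoma edgeR called 0 of 11475 genes, with 326 at an unadjusted p below 0.05, and against the 5 papillary carcinomas alone 0 of 11849 genes, with 297 at an unadjusted p below 0.05. A p that misses the threshold does not show that the groups were alike.

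The fold changes were small for most genes. Their median was 0.02 on the log2 scale, the middle 50% lay between -0.20 and 0.25, and 90% lay between -0.61 and 0.74. A fold change above 2 in either direction was fitted for 400 genes, 3.53% of those tested, of which 276 were higher and 124 lower in tubular CAS, and none of these passed the adjusted test in edgeR. Complete separation of the groups was rare. In 2 genes all 8 tubular libraries stood above all 7 other libraries (0.0177% of genes tested), and in 0 genes did all 8 stand below (0%). Of the 6435 ways to choose 8 of 15 libraries, 1 puts all 8 on top, a share of 0.000155 in each direction. The 2 genes are thus near the number that a label unrelated to expression would give.

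**Figure D2:**
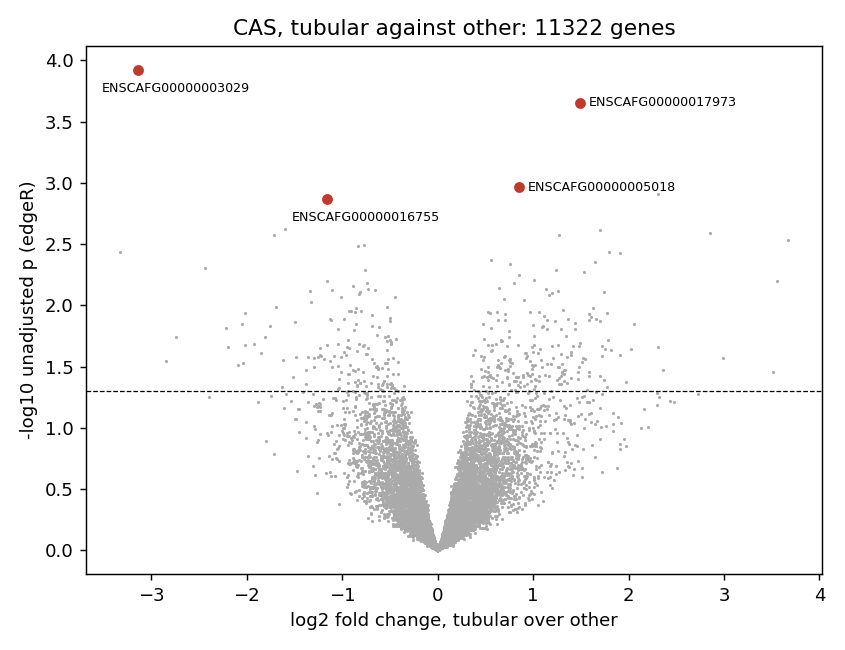
Each point is 1 of 11322 genes, with the log2 fold change of tubular over other CAS on the x axis and -log10 of the unadjusted edgeR p on the y axis, and a dashed line at the unadjusted threshold of 0.05. The genes of smallest p are marked in red, 2 higher and 2 lower in tubular CAS, and none of them reached an FDR of 0.05 in edgeR.

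How large a difference could still be present was read from the 95% interval of each fold change. For 5834 genes, 51.5% of those tested, the whole interval lay within a 2-fold change in either direction, and for 10393 genes, 91.8%, within a 4-fold change. The precision followed the level of the gene. When the genes were divided into 3 groups of 3774 by level, the intervals lay within 2-fold for 12.7% of the lowest group (2.68 to 11.9 CPM), for 61.7% of the middle group (11.9 to 32.4 CPM) and for 80.2% of the highest group. The median half-width of the interval was 1.10, 0.67 and 0.49 on the log2 scale in these groups. For most genes of the lowest group, the interval thus did not exclude a difference of 2-fold or more at this depth and spread. The intervals are those of single genes and were not widened for the number of genes. Calls used p adjusted over all tested genes. Whether a 2-fold difference would have been called was therefore not tested for any of the 3 groups.

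**Figure D3:**
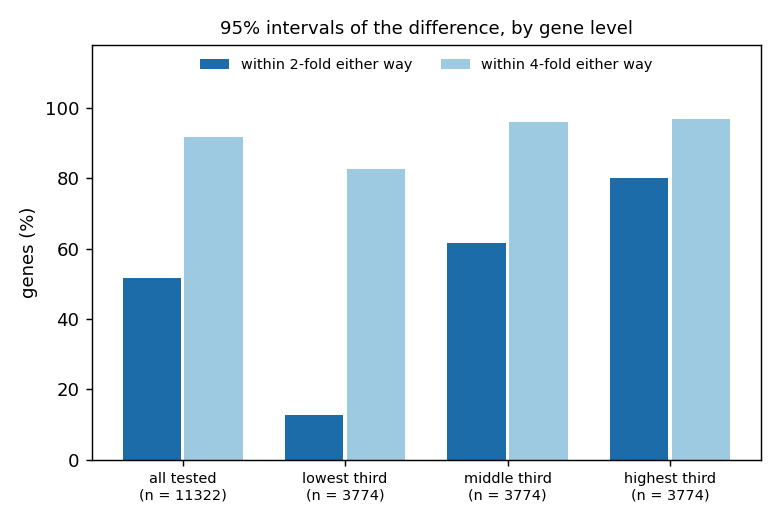
Bars give the percentage of genes whose 95% interval for the fold change of tubular over other CAS lay wholly within 2-fold (dark) or 4-fold (light) in either direction, for all tested genes and for 3 equal groups by level. The share within 2-fold rose from 12.7% in the lowest group to 80.2% in the highest.

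Among genes higher in tubular CAS, the smallest p belonged to ENSCAFG00000017973. Its level ranged from 5.66 to 14.8 CPM in tubular CAS, with a median of 9.06, and from 2.36 to 4.90 CPM in other CAS, with a median of 3.17. All 8 tubular libraries were above all 7 others, and the gap lay between dog 127 (tubular, 5.66 CPM) and dog 121 (tubulo-papillary, 4.90 CPM). The means were 9.34 ± 2.80 CPM (SD, n = 8) and 3.26 ± 0.941 CPM (SD, n = 7). The log2 fold change was 1.49 (SE 0.32, 95% interval 0.81 to 2.17), with an adjusted p = 0.999 in edgeR's quasi-likelihood test and an unadjusted p of 0.000221. DESeq2 gave a log2 fold change of 1.47 and an adjusted p = 0.0333, and this is 1 of its 2 calls. The gene is of low abundance, with 14 to 58 counts per library in tubular CAS and 8 to 40 in other CAS.

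The next gene in that direction, ENSCAFG00000005018, was the other gene with complete separation. Its level ranged from 18.7 to 40.1 CPM in tubular CAS, with a median of 24.0, and from 11.7 to 18.5 CPM in other CAS, with a median of 13.1. The lowest tubular library (dog 123, 18.7 CPM) and the highest other library (dog 138, 18.5 CPM) nearly touched. Its mean was 26.2 ± 7.56 CPM (SD, n = 8) against 14.5 ± 2.61 CPM (SD, n = 7). The log2 fold change was 0.85 (SE 0.22, 95% interval 0.39 to 1.31), and the adjusted p was 0.999 in edgeR and 0.421 in DESeq2. The highest level was found in dog 136, one of the libraries that stood apart in the PCA.

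ENSCAFG00000003029 had the smallest p of all genes and was lower in tubular CAS. Its level ranged from 0 to 13.2 CPM in tubular CAS, with a median of 4.53, and from 9.14 to 137 CPM in other CAS, with a median of 31.9. In 6 of 8 tubular libraries it was below every other library, while dogs 135 (13.2 CPM) and 137 (12.7 CPM) overlapped with the lowest of the other group. It was at 0 counts in dog 130, where 3 counts would have been 2.23 CPM. Dogs 136 and 132 had only 4 and 5 counts. Counts per library ranged from 0 to 42 in tubular CAS and from 31 to 647 in other CAS. The means were 5.58 ± 4.88 CPM (SD, n = 8) and 51.6 ± 49.1 CPM (SD, n = 7). The log2 fold change was -3.14 (SE 0.64, 95% interval -4.50 to -1.79), with an adjusted p = 0.999 in edgeR and 0.00174 in DESeq2, where the log2 fold change was -3.20.

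The level of ENSCAFG00000003029 was not uniform over the other subtypes. It was highest in the cystic-papillary CAS of dog 134 (137 CPM), followed by the cribriform CAS of dog 131 (102 CPM) and the cystic-papillary CAS of dog 139 (49.6 CPM). The 3 tubulo-papillary tumours had 31.9, 14.0 and 9.14 CPM, and the tubular-solid tumour had 18.4 CPM. The tumours with a tubular part in their name were thus the 4 lowest of the other group, an order noticed after the values were seen and with too few dogs per subtype for a test.

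The second gene lower in tubular CAS, ENSCAFG00000016755, was the most abundant of the 4. Its level ranged from 45.4 to 102 CPM in tubular CAS, with a median of 52.8, and from 42.9 to 230 CPM in other CAS, with a median of 134. The tubular range lay inside that of the other group, because dog 121 (tubulo-papillary, 42.9 CPM) was the lowest of all 15 libraries. The highest levels were those of the tubular-solid CAS of dog 109 (230 CPM) and of the tubulo-papillary CAS of dogs 128 (204 CPM) and 138 (172 CPM). These and the cystic-papillary CAS of dog 134 (134 CPM) stood above every tubular library. The means were 60.9 ± 19.4 CPM (SD, n = 8) and 135.8 ± 69.2 CPM (SD, n = 7). The log2 fold change was -1.15 (SE 0.31, 95% interval -1.80 to -0.51), and the adjusted p was 0.999 in edgeR and 0.443 in DESeq2.

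**Figure D4:**
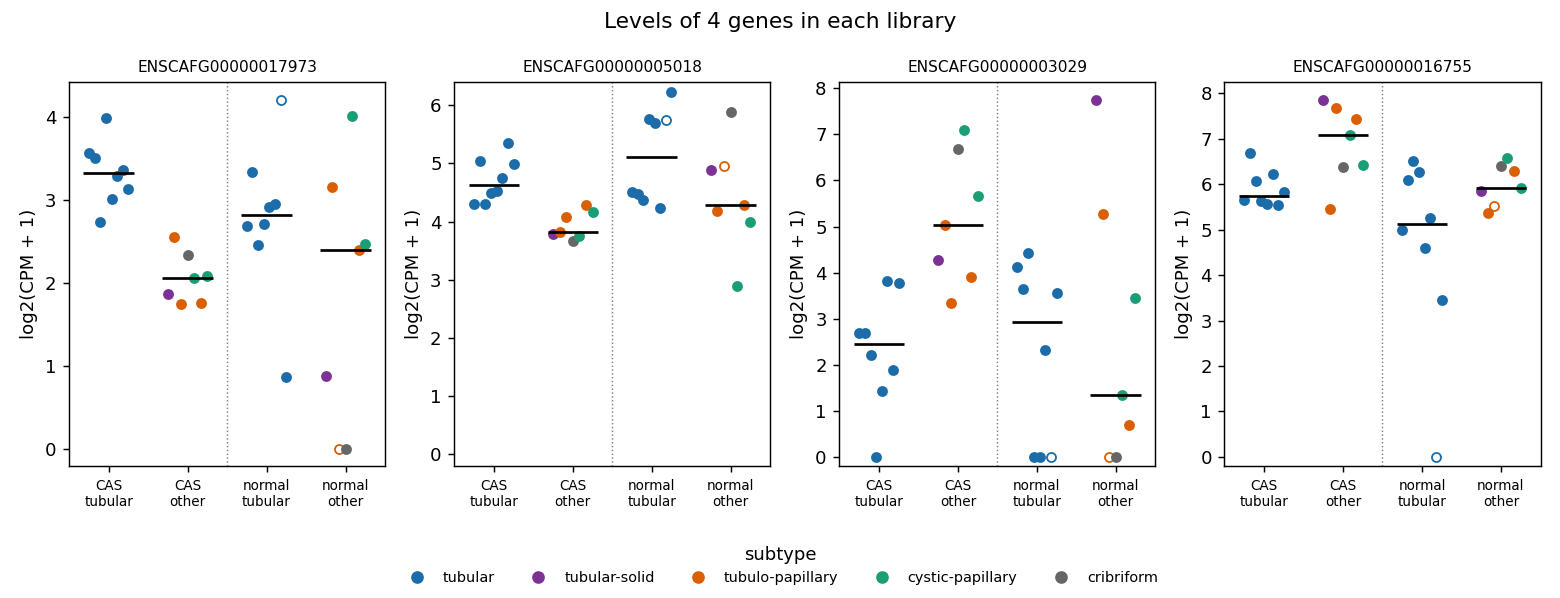
Level of the 4 genes as log2(CPM + 1) in CAS and in normal stroma, with 1 point per library coloured by subtype and a bar at the median, and open points for the normal stroma of dogs 128 and 136, which hold few counts. In CAS the groups separate fully for ENSCAFG00000017973 and ENSCAFG00000005018 and overlap for ENSCAFG00000003029 and ENSCAFG00000016755.

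The 4 genes were chosen for their small p in these same libraries, so that a kept sign in refits of the same data is no independent evidence. The sizes are given as a description. With the age of the dog as a covariate the log2 fold changes were 1.49 for ENSCAFG00000017973, 0.91 for ENSCAFG00000005018, -3.32 for ENSCAFG00000003029 and -1.49 for ENSCAFG00000016755. In the 11 dogs aged 9 years or more, a choice made after seeing the data, they were 1.63, 0.94, -3.42 and -1.30, in the same order. In the 9 dogs not labelled neutered, also chosen after seeing the data, they were smaller, at 1.44, 0.63, -2.82 and -0.80. With neuter status as a covariate they were 1.47, 0.84, -3.13 and -1.14, and with block age 1.48, 0.84, -3.02 and -1.16. With 5 surrogate variables, patterns estimated from the data beside the subtype, they shrank to 1.36, 0.73, -1.79 and -0.89. In each of these edgeR fits the adjusted p of every one of the 4 genes was at least 0.957.

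**Figure D5:**
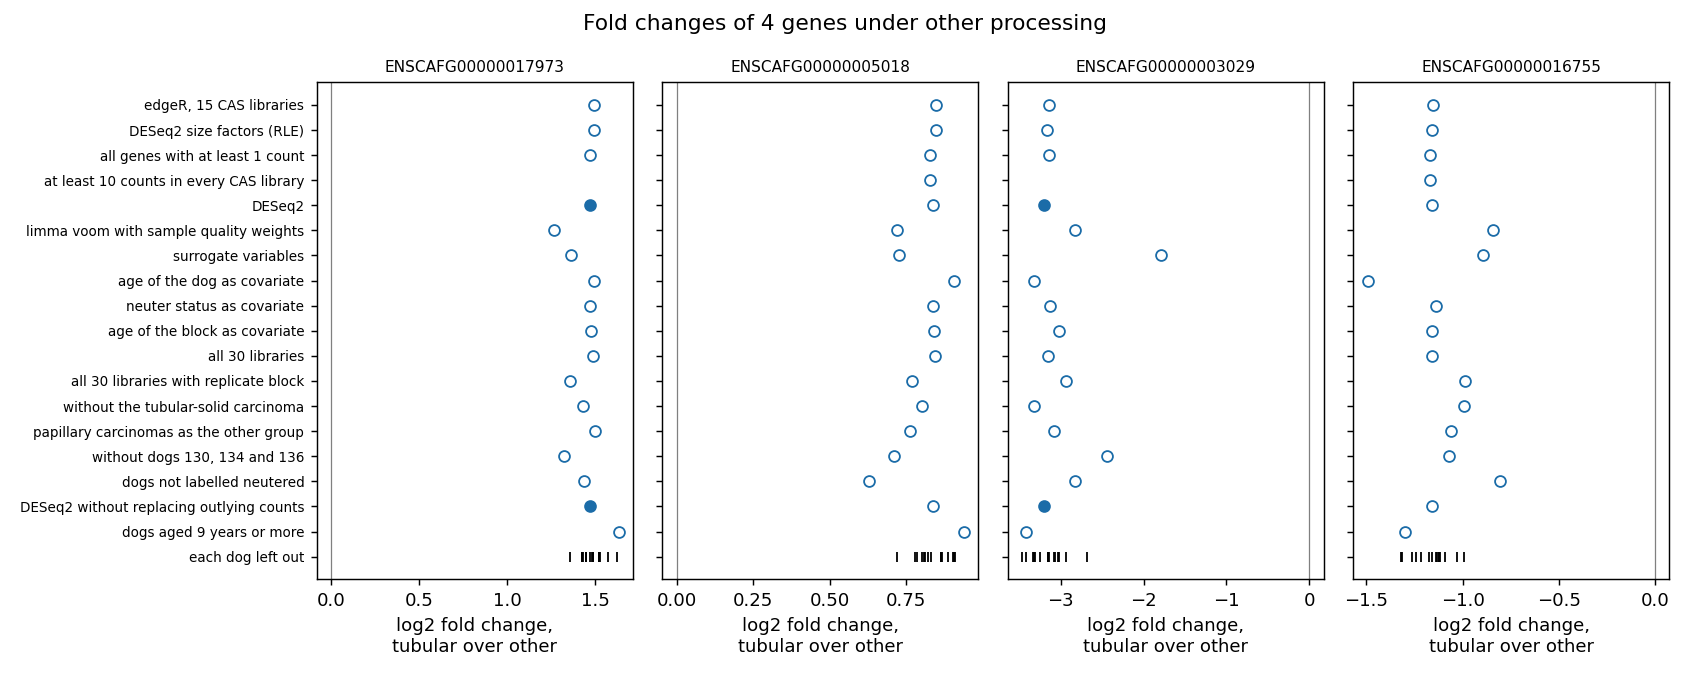
Log2 fold change of the 4 genes (tubular over other CAS) under each way of processing the data, with filled circles where the adjusted p was below 0.05, and tick marks for the 15 fits that leave out 1 dog each. The genes were chosen on the fit in the top line, and only the DESeq2 fits gave filled circles, for ENSCAFG00000017973 and ENSCAFG00000003029.

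Normal stroma of the same dogs was then set beside CAS, to see whether the differences were also present away from the tumour. Normal stroma of dogs 128 and 136 held only 29284 and 32528 counts, where 1 count equals 15.0 and 17.5 CPM. ENSCAFG00000017973 had a log2 fold change of 0.07 (SE 0.68) between tubular and other normal stroma, with ranges of 0.831 to 9.17 CPM in 7 tubular and 0 to 15.2 CPM in 6 other libraries when dogs 128 and 136 were set aside. ENSCAFG00000005018 had a log2 fold change of 0.68 (SE 0.46), with ranges of 17.9 to 74.0 CPM and 6.46 to 58.0 CPM. The groups overlapped for both genes. In edgeR the adjusted p was 0.9998 for all 4 genes in normal stroma.

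For ENSCAFG00000003029, normal stroma had a fitted log2 fold change of -2.10 (SE 0.97), and 1 library stood far above the rest. Dog 109 (tubular-solid) had 213 CPM, and the other normal stroma libraries had at most 37.9 CPM. Without dogs 128 and 136 the median was 10.8 CPM in tubular and 5.74 CPM in other normal stroma, the opposite order to the fitted value. In dog 131 the gene was at 102 CPM in CAS and at 0 counts in normal stroma, where 3 counts would have been 5.44 CPM. In dog 134 it was at 137 CPM in CAS and 1.52 CPM in normal stroma. ENSCAFG00000016755 had a log2 fold change of -0.55 (SE 0.41) in normal stroma, with medians of 37.3 and 68.2 CPM when dogs 128 and 136 were set aside.

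Whether the tubular difference itself differed between CAS and normal stroma was tested as an interaction over all 30 libraries. Among these are the normal stroma libraries of dogs 128 and 136, which hold few counts. In edgeR 0 of 12049 genes passed an FDR of 0.05 (0%), with 369 genes at an unadjusted p below 0.05, and the smallest adjusted p was 0.9999. With the dog as a replicate block, the paired form of this test, there were again 0 genes, with 231 at an unadjusted p below 0.05. Without dogs 128 and 136 edgeR also called 0 genes. DESeq2 called 2 genes, neither of them among the 4 above. One of these had 0 counts in all 8 tubular CAS libraries and between 0 and 6528 counts in tubular normal stroma, with 4 of 8 libraries at 0, and the other had at most 20 counts in other CAS and up to 224 in tubular CAS. For ENSCAFG00000017973 the difference in CAS exceeded that in normal stroma by 1.42 on the log2 scale (SE 0.73, adjusted p = 0.9999 in edgeR), and for ENSCAFG00000005018 by 0.15 (SE 0.49, adjusted p = 0.9999). With the replicate block these differences were 0.98 and 0.06. For ENSCAFG00000003029 the difference was -1.06 (SE 1.22) without the block and -3.01 with it, and for ENSCAFG00000016755 it was -0.62 (SE 0.52) and -0.15. In both edgeR fits the adjusted p of all 4 genes was 0.9999. The SEs are those of the fit without the block, which treats the 2 libraries of a dog as independent. With the block, the unadjusted edgeR p was 0.278, 0.913, 0.0416 and 0.757, in the same order of genes. The 4 genes were chosen for their difference in CAS, which is part of this interaction. That choice favours a larger difference in CAS than in normal stroma, here and in the normal stroma values above.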

How the data were processed

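RNA from LCM isolates had been sequenced as 30 stranded total RNA libraries. The authors quantified reads with kallisto 0.44.0 against Ensembl transcripts of CanFam3.1, summed them per gene with tximport and deposited estimated counts without normalisation for 18582 genes. Estimated counts divide reads between near-identical genes, so single genes with close copies are uncertain. Of the deposited values, 0 have a fraction, and rounding to whole numbers changed nothing. Per the labels, groups were set by subtype.

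In R 4.3.3, the 15 CAS libraries were filtered with filterByExpr of edgeR 4.0.16 (11322 of 17971 genes with at least 1 count), scaled by TMM and tested with the quasi-likelihood test without covariates, because the study states surrogate variables for CAS against normal stroma and no test of subtype. Calls used a Benjamini-Hochberg FDR of 0.05. SEs and 95% intervals were derived from the fold change and the F statistic. CPM are TMM-scaled. The PCA used log2 CPM with a prior count of 2, centred but not scaled. DESeq2 1.42.0, limma 3.58.1 and sva 3.50.0 (svaseq, 5 variables, num.sv with 20 permutations) served as alternatives. DESeq2 replaced outlying counts in 44 genes, none of them called, and called the same 2 genes without replacing.

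The members and gene lists were chosen with earlier results of these data known. The named genes are the 2 with the smallest p in each direction, the rule for IDs without names. Both libraries of a dog stem from 1 animal, which pairs them in the interaction. The groups compared within CAS are different dogs. The tests were tried on simulated counts. Total counts, from 1361951 to 5572761 in CAS, limit the precision, and the limit for a gene at 0 is 3 counts per library, which covers counting error only.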

Additional observations from a re-analysis of the deposited data

Results flagged for a closer look

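In 24 sets of values, one for each measure and subtype group, the gap between the most extreme dog and its nearest neighbour was set against the spread of the group, and 2 dogs stood apart. Chance would flag about 1 set in 20, so 2 flags in 24 sets are not far from the number that chance gives. Both are tubular CAS libraries. The PC2 score of dog 130 was 109 and the next highest in its group 19.03. The PC3 score of dog 136 was 99.0 and the next highest in its group 25.4. A fit without dogs 130, 134 and 136 was added once the data had been seen. There edgeR again called 0 genes, and 299 of 11308 genes had an unadjusted p below 0.05. The log2 fold changes were then 1.32 for ENSCAFG00000017973, 0.71 for ENSCAFG00000005018, -2.44 for ENSCAFG00000003029 and -1.07 for ENSCAFG00000016755.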

How the results depend on the processing

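The number of genes called was 0 in every edgeR and limma fit, among them all 15 that left out 1 dog, and 2 in DESeq2, with and without replacing outlying counts. The cause of the difference between tools was not tested. Genes at an unadjusted p below 0.05 moved more. There were 218 higher and 153 lower in the report. Dropping the filter, so that every gene with a count in CAS entered, gave 666 and 561, or 6.83% of 17971 genes against 3.28% of 11322. At least 10 counts in every CAS library gave 131 higher, with only 6488 genes tested, among them neither ENSCAFG00000017973 nor ENSCAFG00000003029. Both directions together were 3.68% of these 6488 genes against 3.28% in the report, so the count fell but the share did not. Neuter status as a covariate gave 134 higher, age as a covariate 269 lower and all 30 libraries 97 lower. Of the settings chosen after seeing the data, dogs not labelled neutered (9 dogs) gave 93 higher, and dogs aged 9 years or more 234 lower. The cause of these shifts was not tested. Leaving out 1 dog gave 158 (without dog 131) to 273 higher and 123 to 242 lower (without dog 126). The share of these genes that was higher was 58.8%, and 57.8% with DESeq2's size factors and 47.8% in limma's voom. In edgeR it was 49.7% with surrogate variables, 49.0% with age and 48.4% with neuter status as a covariate, and 48.1% without dog 126. Over all fits it ranged from 39.1% (dogs not labelled neutered) to 61.9% (without dog 134).

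Leaving out 1 dog, the difference in age was between 2.79 and 4.29 years, with exact p from 0.00408 to 0.0624, staying below 0.05 in 6 of 15 fits and rising above it without dog 121, 123, 126, 127, 128, 130, 135, 136 or 139. The difference in log2 total counts was between -0.59 (without dog 127) and -0.37 (without dog 130), with exact p from 0.0321 to 0.120, below 0.05 without dog 127, 128, 131, 132 or 135. The difference in block age was between -2.86 months (without dog 136) and 0.96 (without dog 139), so its sign rests on single dogs. With all 30 libraries and the dog as a replicate block, 0 genes were called, and the block changed no call in the interaction, where DESeq2 gave 2 genes against 0. The gene lists and their alternatives were not run, because the IDs have no names. Genes under 11.9 CPM had the widest intervals.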

Other observations

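Other labels were placed in the same edgeR fit beside subtype, a choice made after seeing the data. For block age, 936 of 11322 genes (8.27%) had an unadjusted p below 0.05, 427 higher and 509 lower with older blocks. For neuter status there were 429 genes (3.79%) and for the age of the dog 301 genes (2.66%). At an FDR of 0.05, 0 genes were called for each of the 3 labels. Without dog 136, whose block was the oldest, block age gave 688 of 11250 genes (6.12%). The squared correlation of a gene's log2 CPM with a label, over the 15 CAS libraries, had a median of 5.46% for block age, 4.07% for neuter status, 3.50% for subtype and 2.50% for the age of the dog. A label unrelated to a gene would give 7.14% on average, a mean and not a median, so these medians cannot be read against it. The squared correlation exceeded 25% in 10.8% of genes for block age, 6.55% for neuter status, 3.97% for subtype and 2.07% for the age of the dog. The share that an unrelated label would give was not computed.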
